A study of Gossypium hirsutum with 89 samples.

Results

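JKC 783 is a genotype of upland cotton, Gossypium hirsutum, that the labels class as inferior in fibre traits, and the arrays described here follow its fibre at 6, 9, 12, 19 and 25 days post anthesis (dpa). They were chosen by genotype and day alone: 14 of the 89 arrays of the series, 3 each at 6, 9, 12 and 19 dpa and 2 at 25 dpa. The whole ovules taken at 0 dpa were left out, since the samples of the later days are described as fibre. The plants were grown in open field, flowers were tagged at anthesis, and the replicates are labelled as biological. The other 4 genotypes, JKC 777 and JKC 725 (superior in fibre traits) and JKC 737 and JKC 703 (inferior), each gave 15 fibre arrays over the same days and are used only to show where JKC 783 differs.

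A cotton fibre is a single epidermal cell of the seed coat that first elongates, with a thin primary wall of cellulose, xyloglucan and pectin, and later lays down a secondary wall of almost pure cellulose. Elongation draws on turgor, on expansins and other proteins that loosen the wall, and on long-chain lipids. The secondary wall is made by cellulose synthase complexes at the plasma membrane, which are fed with UDP-glucose by sucrose synthase and guided by cortical microtubules. In RNA of whole fibres, fewer cells of a type and less RNA per cell cannot be told apart, and a level is that of the harvested fibre as a whole.

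Each value is an array signal on the linear scale the authors deposited. Changes are differences of log2(signal + 4.38) between day means, later minus earlier, with the standard error (SE) from limma. A change was called at an adjusted p under 0.05 and a size of at least 1, which is a factor of 2, over the 15940 probe sets whose mean signal on at least 1 fibre day of JKC 783 reached 40.4. The 14 arrays had median signals of 67.7 to 97.7, and Pearson correlations of 0.959 to 0.976 between arrays of 1 day, on the log2 scale across probe sets. The median correlation with the 6 dpa arrays was 0.960 for 9 dpa, 0.940 for 12 dpa, 0.897 for 19 dpa and 0.887 for 25 dpa. Only 273 of the tested probe sets, for 222 genes, could be given a gene name, so the named genes are 1.71% of what was tested. Detection calls were not used here, and signals near or under the added 4.38 carry little information on level.

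The fibre markers E6 and H6L were bright at both ends of the course. E6, a protein abundant in cotton fibre, had signals of 16468 and 16343 at 25 dpa and 12576, 11603 and 15699 at 6 dpa. H6L, another fibre protein, had 15237 and 18048 at 25 dpa and 10513, 7998 and 9496 at 6 dpa. Of the 7 fibre marker probe sets 1 (EXPA1) rose from 6 to 25 dpa (by 0.83, and so no longer called, with quantile normalization), 2 (myb109 and 1 LTP3 probe set) fell and 4 were not called. Of all tested probe sets 13.1% were higher and 20.7% lower. Among the markers of other tissues, the seed storage gene LEGB fell, with 164 and 111 at 25 dpa against 475, 562 and 681 at 6 dpa (-2.03 ± 0.27, SE, adjusted p = 5.89e-05). The other 3 storage protein probe sets (vicB_At, LegA and a further LEGB) stayed under the signal filter. The embryo genes Lea5-D and Lea14-A changed by 2.22 and -0.83, the histones HIS2B and HIS3 by -0.68 and -0.31, and the rubisco activase gene RCA1 by 0.97 on the log2 scale, none of them called. Of 5 flower MADS-box probe sets, SEPALLATA3 fell by 1.47 on the log2 scale (adjusted p = 0.0591 without the second 25 dpa array) and 4 were not called. At an unadjusted p under 0.05, limma found 1 of the 2 histone probe sets and not RCA1. The part of such tissues in the results was not tested.

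Some replicates stood apart within a day. Of the 106 calls of nameable probe sets between 25 and 6 dpa, 15 were lost without the first 25 dpa array and 20 without the second, 6 of them in both settings. An array was counted as standing above the others of its day for a probe set when it exceeded each of them by at least 1 on the log2 scale. This held for 730 probe sets (4.58%) on the first 9 dpa array, and 594 (3.73%) on the first 12 dpa array, against 35 to 418 probe sets on the other arrays at 6 to 19 dpa. At 25 dpa, where an array had only 1 other to exceed, it held for 1340 (8.41%) on the first array and 519 (3.26%) on the second. The 730 and the 594 shared 183 probe sets, which are 25.1% of the 730 and 30.8% of the 594. The 730 and the 1340 shared 260 probe sets, which are 35.6% of the 730 and 19.4% of the 1340. In all 3 of these arrays 111 probe sets stood above, 10 of them with a name, for 8 genes: the glutathione S-transferase gene GST, the peroxidase genes pod7 and pod10, the transcription factor genes NAC2, NAC4, WRKY15 and ERF7, and GID1-2, a gibberellin receptor gene. GST, whose product conjugates reactive compounds to glutathione, had 37.3, 19.5 and 24.5 at 6 dpa, 797, 89.7 and 178 at 9 dpa, 1129, 188 and 185 at 12 dpa, 97.0, 46.3 and 414 at 19 dpa and 2443 and 458 at 25 dpa. The first value of the 9, 12 and 25 dpa arrays was several times the others of its day, while on 19 dpa it was the third array that was highest. In the opposite direction, the second 19 dpa array lay below both others of its day by at least 1 for 853 probe sets (5.35%).

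**Figure D1:**
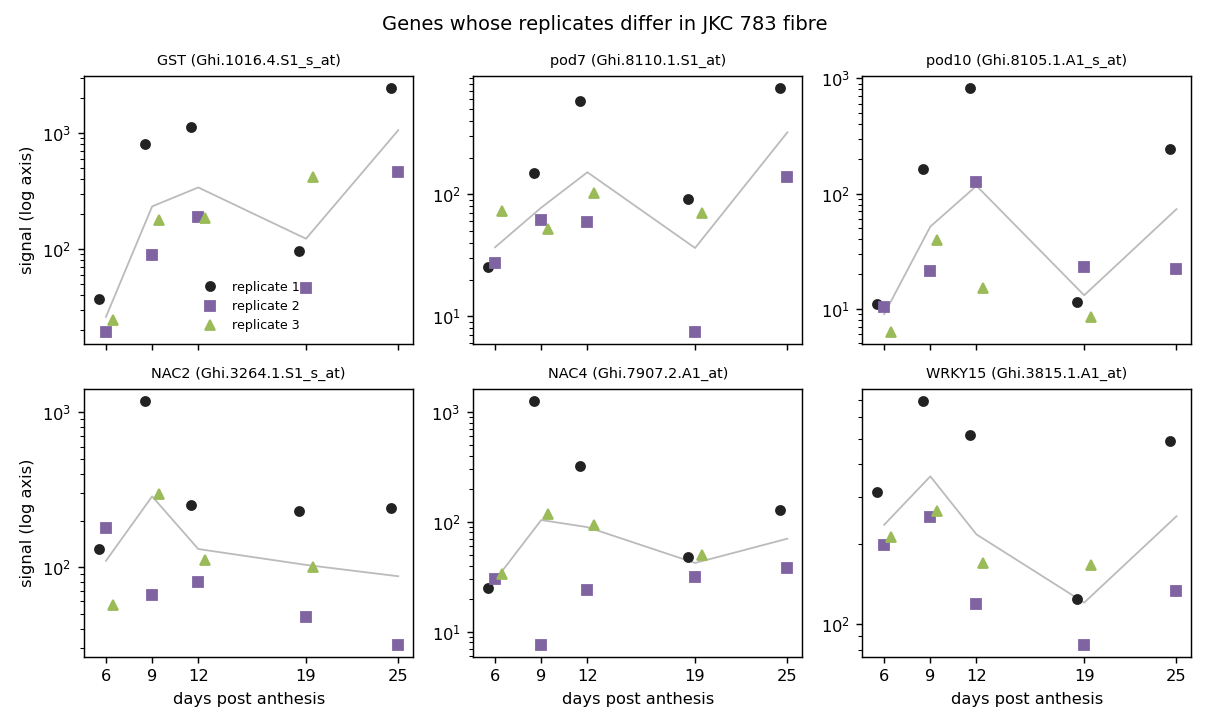
Signals of GST, pod7, pod10, NAC2, NAC4 and WRKY15 on the 14 JKC 783 fibre arrays (vertical, log axis) against days post anthesis (horizontal), with a marker shape for each replicate number and a line through the geometric means. These genes were chosen because replicate 1 stood above the others at 9, 12 and 25 dpa, where the black circles are the highest points.

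The ends of the course differed far more than any 2 neighbouring days. Between 25 and 6 dpa, 5392 probe sets were called, 33.8% of those tested, 2091 higher (13.1%) and 3301 lower (20.7%) at 25 dpa. Each of the 4 steps gave fewer calls. At 9 against 6 dpa there were 400 (2.51%), 300 higher (1.88%) and 100 lower (0.627%), and at 12 against 9 dpa 483 (3.03%), 186 higher (1.17%) and 297 lower (1.86%). At 19 against 12 dpa there were 1107 (6.94%), 469 higher (2.94%) and 638 lower (4%), and at 25 against 19 dpa 303 (1.9%), 102 higher (0.64%) and 201 lower (1.26%). The steps differ in length, and 25 dpa has 2 arrays, so the counts are not rates. Leaving out 1 array could change the count of a single step by more than 1.5 times. The count from 9 to 12 dpa was 68 without the third 9 dpa array, and that from 19 to 25 dpa was 79 without the second 25 dpa array. Without that 9 dpa array the split from 9 to 12 dpa was 38 higher and 30 lower, and without the second 19 dpa array that from 12 to 19 dpa was 464 higher and 452 lower. Any difference among the 5 days was found for 9310 probe sets (58.4%) by limma's F test at an adjusted p under 0.05, with no minimum change.

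Of the 2091 probe sets higher at 25 dpa, 710 (34%) made the largest part of their change from 12 to 19 dpa, 666 (31.9%) from 6 to 9 dpa, 376 (18%) from 9 to 12 dpa and 339 (16.2%) from 19 to 25 dpa. Of the 3301 lower ones, 1003 (30.4%) made it from 12 to 19 dpa, 937 (28.4%) from 9 to 12 dpa, 726 (22%) from 6 to 9 dpa and 635 (19.2%) from 19 to 25 dpa. No single step was called in the same direction for 1399 (66.9%) of the higher and 2434 (73.7%) of the lower probe sets. The split into higher and lower probe sets depended on the scaling of the arrays. With quantile normalization 2346 were higher and 2536 lower at 25 dpa, and with each array centred on its median 2667 were higher and 2562 lower. With median centring the split was 232 higher and 168 lower at 9 against 6 dpa, 238 and 207 at 12 against 9 dpa, and 103 and 95 at 25 against 19 dpa, and with quantile normalization it was 242 and 225 at 12 against 9 dpa. Over the tested probe sets the median change from 6 to 25 dpa was -0.17 on the authors' scaling, -0.04 after quantile normalization and 0.03 after median centring. Every change below is on the authors' scaling.

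**Figure D2:**
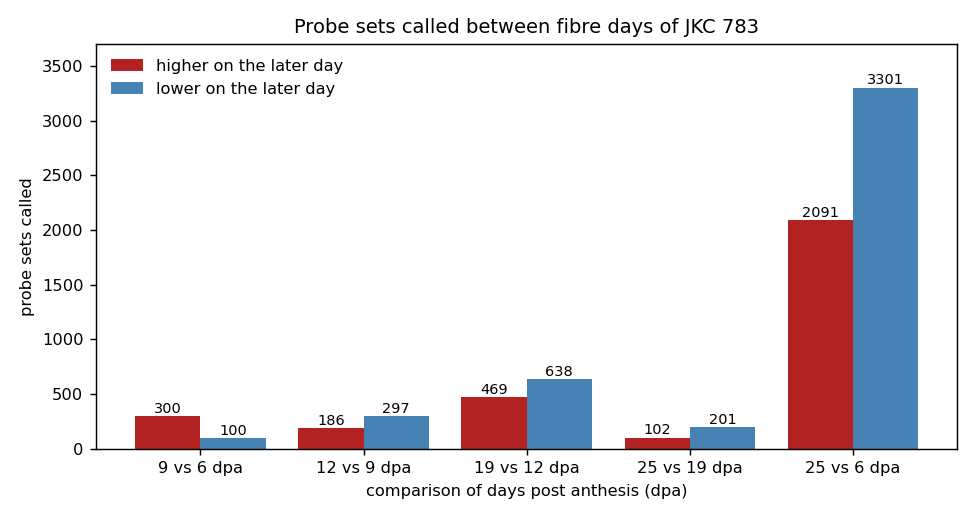
Number of probe sets called higher (red) and lower (blue) on the later day in each of 5 comparisons of JKC 783 fibre days (horizontal), out of 15940 tested. The step from 12 to 19 dpa has the most calls of the 4 steps, 469 higher and 638 lower.

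Of the 273 nameable probe sets, 106 were called between 25 and 6 dpa (38.8%), 61 higher (22.3%) and 45 lower (16.5%) at 25 dpa. The steps gave 18 calls among them at 9 against 6 dpa (6.59%, 16 higher or 5.86% and 2 lower or 0.733%), 9 at 12 against 9 dpa (3.3%, 8 higher or 2.93% and 1 lower or 0.366%), 38 at 19 against 12 dpa (13.9%, 18 higher or 6.59% and 20 lower or 7.33%) and 11 at 25 against 19 dpa (4.03%, 3 higher or 1.1% and 8 lower or 2.93%). The genes with the largest rises were FLA6, CelA1, TUA10, susC, Aux6, nst3, GST, Rac13, POX5 and Pat1, with log2 changes of 10.33 to 4.72. Those with the largest falls were CPA-FAS-2, CPA-FAS-1, GHDEL61, GHMYB10, LTP3, GAE2, NAC7, CNGC2, FLA12 and Pel, with -7.28 to -2.51. These 20 calls held under each alternative processing tried and with each array left out in turn. Pat1, for which no role is given here, had 2318 and 2552 at 25 dpa against 83.7, 122 and 66.7 at 6 dpa, with no overlap. These genes are described below with the other members of their families, by role. Each count of list members called from 6 to 25 dpa stands beside shares of 13.1% higher and 20.7% lower over all tested probe sets. No list was tested against these shares.

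Genes tied to the secondary wall rose at different times. FLA6, a fasciclin-like arabinogalactan protein of the cell surface, had 9.71, 0.620 and 1.45 at 6 dpa, 11.3, 20.2 and 15.2 at 9 dpa, 843, 55.3 and 76.6 at 12 dpa, 7109.9, 7494 and 4889 at 19 dpa and 8743 and 10439 at 25 dpa. It was near the offset at 6 and 9 dpa, high in 1 of the 3 arrays at 12 dpa, and far higher on all arrays at 19 and 25 dpa, with no overlap between these days and the earlier ones. Its change was 3.03 ± 0.76 from 9 to 12 dpa (adjusted p = 0.0356), 5.32 ± 0.76 from 12 to 19 dpa (adjusted p = 0.000841) and 10.33 ± 0.84 from 6 to 25 dpa (adjusted p = 2.2e-06). The call from 9 to 12 dpa was lost without any one of the 9 dpa arrays (adjusted p = 0.0619 to 0.125) and with other offsets. Its early signals lie near the offset, and the change from 6 to 25 dpa was 8.07 with an offset of 32 and 12.18 with none. A second FLA6 probe set rose from 12 to 19 dpa by 5.85 ± 0.71 (adjusted p = 0.000313).

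Sucrose synthase splits sucrose into fructose and UDP-glucose, the substrate of cellulose. The probe set of its isoform gene susC had 297, 131 and 97.4 at 6 dpa, 144, 269.6 and 229.6 at 9 dpa, 236, 218 and 262 at 12 dpa, 8353, 8409.6 and 7105 at 19 dpa and 10359 and 13221 at 25 dpa. The 9 arrays up to 12 dpa were all low, and the 5 later ones all far higher. The step from 12 to 19 dpa was 5.03 ± 0.33 (adjusted p = 4.27e-06), the largest after FLA6 among the genes named for that step. This probe set shares its design cluster number, 2039, with that of EXPA1, so its assignment to susC rests on the annotation table. Of the other sucrose cleavage probe sets, Sus1, with the highest signals, changed by -0.75 from 6 to 25 dpa and both of SusA1 by 0.58 and 1.09, so 1 of 4 rose, none fell and 3 were not called. The list's median change was 0.84, against -0.17 over all tested probe sets.

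CelA1 encodes a catalytic subunit of the cellulose synthase complex, and its 2 probe sets followed different courses. Ghi.8461.1.A1_at had 6.65, 27.1 and 33.7 at 6 dpa, 664, 454 and 20.9 at 9 dpa, 2405, 3615 and 5738 at 12 dpa, 8530.1, 7341 and 7775 at 19 dpa and 1801 and 7306 at 25 dpa. It was already high on every 12 dpa array, a day on which FLA6 and susC were still low, and at 25 dpa its 2 arrays lay far apart. Its change was 4.22 ± 0.98 from 9 to 12 dpa (adjusted p = 0.0284) and 7.26 ± 1.10 from 6 to 25 dpa (adjusted p = 0.000155), and the earlier of these calls was lost without the third 9 dpa array (2.74, adjusted p = 0.0647) or without the second or the third 12 dpa array. Ghi.1151.1.A1_at had 97.5, 40.1 and 50.9 at 12 dpa, 519.8, 183 and 905 at 19 dpa and 1652 and 8258 at 25 dpa, with at most 56.4 on the 6 and 9 dpa arrays. It rose by 2.83 ± 0.62 from 12 to 19 dpa (adjusted p = 0.0106) and by 3.05 ± 0.69 from 19 to 25 dpa (adjusted p = 0.036), with no overlap in either step. The call of the step to 25 dpa was lost in 10 of the alternatives, among them leaving out the second 25 dpa array (1.89, adjusted p = 0.307). The list of cellulose synthases and their relatives also holds a probe set of CslD1, which stayed under the signal filter.

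CTL1, a chitinase-like protein tied to cellulose deposition, had 149, 141 and 119 at 6 dpa, 68.3, 113 and 118 at 9 dpa, 139, 71.4 and 74.3 at 12 dpa, 476, 63.0 and 243 at 19 dpa and 436 and 1371 at 25 dpa. The 19 dpa arrays spread widely and overlapped the earlier ones, and the lower 25 dpa array lay within the range at 19 dpa. No single step was called. Between 25 and 6 dpa the change was 2.47 ± 0.67 (adjusted p = 0.00772), and without the second 25 dpa array it was 1.65 (adjusted p = 0.114). The glucanase list holds CEL and GLU, placed there by name. CEL rose, with 7820.2 and 8844 at 25 dpa against 2060.0, 2211 and 2963 at 6 dpa (1.80 ± 0.17, adjusted p = 5.18e-06), while GLU, with 415 and 201 at 25 dpa against 1061, 1018 and 1203 at 6 dpa, was not called (-1.90 ± 0.79, adjusted p = 0.0591). The median of the 2 was -0.05.

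The transcription factor gene nst3 and the GTPase gene Rac13 also rose between 12 and 19 dpa. In Arabidopsis the NST factors switch on secondary wall genes, and the cotton nst3 probe set GhiAffx.46835.1.S1_at had 80.6, 35.3 and 39.0 at 12 dpa, 978, 645 and 654 at 19 dpa and 348 and 606 at 25 dpa. All 19 and 25 dpa arrays lay above all 12 dpa arrays, and the step from 12 to 19 dpa was 3.83 ± 0.54 (adjusted p = 0.00082). The 2 other nst3 probe sets rose in the same step by 3.21 and 2.14, and the first of them had risen by 2.29 ± 0.49 from 9 to 12 dpa (adjusted p = 0.0221), a call lost without the first or second 12 dpa array or the third 9 dpa array. Rac13, a small GTPase linked in cotton to hydrogen peroxide at the start of wall thickening, had 203, 99.8 and 97.9 at 12 dpa, 1612, 1523 and 1397 at 19 dpa and 1904 and 2540.0 at 25 dpa. Its step from 12 to 19 dpa was 3.54 ± 0.26 (adjusted p = 7.76e-06), with the 12 and 19 dpa arrays far apart. Rac9, another member of this GTPase family, had 145 and 541 at 25 dpa against 8.10, 9.45 and 20.4 at 6 dpa, and rose by 4.14 ± 0.65 from 6 to 25 dpa (adjusted p = 0.000208).

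**Figure D3:**
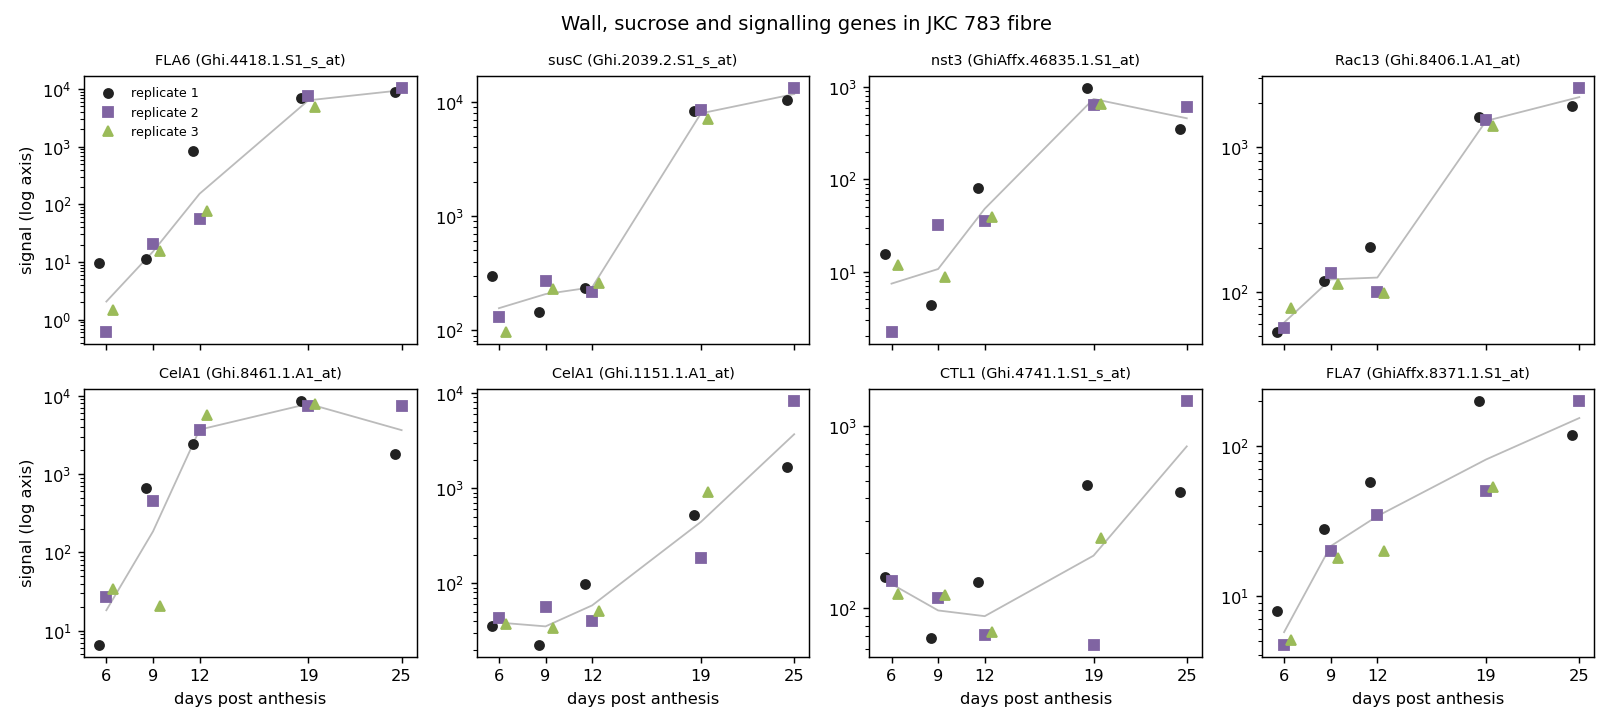
Signals of FLA6, susC, nst3, Rac13, 2 CelA1 probe sets, CTL1 and FLA7 on the 14 JKC 783 fibre arrays (vertical, log axis) against days post anthesis (horizontal), with a marker shape for each replicate number and a line through the geometric means. FLA6, susC, nst3 and Rac13 step up between 12 and 19 dpa, while 1 CelA1 probe set is already above 2400 on all 12 dpa arrays and the other, like CTL1, is highest at 25 dpa with 2 arrays far apart.

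Among all fasciclin-like arabinogalactan proteins, cell-surface glycoproteins of primary and secondary walls, 7 of 16 tested probe sets rose from 6 to 25 dpa, 4 fell and 5 were not called, with a median of 0.87. The shares over all tested probe sets were 13.1% higher and 20.7% lower. FLA7 rose from low signals, with 119 and 199.6 at 25 dpa against 7.87, 4.73 and 5.04 at 6 dpa (3.96 ± 0.55, adjusted p = 8.41e-05). FLA4 had the highest signals of the family at 19 dpa, 13628, 13669 and 10499, and rose by 2.48 ± 0.58 from 6 to 25 dpa (adjusted p = 0.00312). In the other direction, FLA12 had 2363, 2309.7 and 2714 at 6 dpa, 1028, 1289 and 1353 at 9 dpa, 695, 911 and 787 at 12 dpa, 334, 197 and 591 at 19 dpa and 419.9 and 388 at 25 dpa. The 6, 9, 12 and 19 dpa arrays formed 4 ranges that did not overlap, each below the one before, and the change from 6 to 25 dpa was -2.59 ± 0.33 (adjusted p = 3.99e-05). FLA13 fell by 1.16 ± 0.27 on the log2 scale from 6 to 9 dpa (adjusted p = 0.0281), a call lost without any of 5 arrays in turn, and FLA11 fell by 1.18 ± 0.17 on the log2 scale from 12 to 19 dpa (adjusted p = 0.00104). Among the smaller calls over the whole course, that of FLA11 (-1.05) was lost with median centring (-0.85), quantile normalization (-0.99) and without the first 25 dpa array (-0.81). That of FLA13 (Ghi.9666.2.S1_s_at) was also lost without this array (-0.81, adjusted p = 0.173), and so was that of FLA19 (1.27 with all arrays, 0.64 without it, adjusted p = 0.287).

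FLA15 dipped at 19 dpa, with 896, 1195 and 1496 at 12 dpa, 436, 602 and 624 at 19 dpa and 1073 and 1617 at 25 dpa. The 19 dpa arrays lay below all others of the course. It was the single named gene among 72 probe sets (0.452%) whose signal at 9, 12 or 19 dpa was called below both 6 and 25 dpa. Its rise to 25 dpa, also lost with median centring (adjusted p = 0.057), was 1.26 ± 0.25 (adjusted p = 0.0187), and was 0.97 (adjusted p = 0.192) without the second 25 dpa array.

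Expansins loosen the growing wall, and their 7 tested probe sets had 3 rises, 3 falls and 1 without a call from 6 to 25 dpa, with a median of -1.15. Over all tested probe sets 13.1% were higher and 20.7% lower. Of the falls, that of EXPA11A was -0.95, and so no longer called, with median centring. That of EXPA4 (Ghi.704.1.S1_at) was -0.99 (adjusted p = 0.0576) without the second 25 dpa array. EXPA3D rose early and stayed up until 19 dpa. Its probe set Ghi.249.1.A1_at had 155, 114 and 136 at 6 dpa, 980.3, 1439 and 521 at 9 dpa, 1363, 631 and 1096 at 12 dpa, 5302, 5029 and 4074 at 19 dpa and 1444 and 1294 at 25 dpa. The 19 dpa arrays lay above those of every other day, and it was among 136 probe sets (0.853%) whose signal at 9, 12 or 19 dpa was called above both 6 and 25 dpa. It rose by 2.72 ± 0.33 from 6 to 9 dpa (adjusted p = 0.00157) and by 2.28 ± 0.33 from 12 to 19 dpa (adjusted p = 0.000976), and fell by 1.80 on the log2 scale to 25 dpa (adjusted p = 0.0236). That call was lost without either 25 dpa array (adjusted p = 0.0522 and 0.156), and without the first or second 19 dpa array. The second EXPA3D probe set had 212, 141 and 167 at 6 dpa, 3379.9, 2157 and 1905 at 12 dpa, 2737, 4104 and 3829 at 19 dpa and 1748 and 947 at 25 dpa.

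EXPA1, the brightest expansin, had 13039 and 13032 at 25 dpa against 5615, 5583 and 8119 at 6 dpa, a rise of 1.04 ± 0.17 (adjusted p = 0.000291). EXPA4 (Ghi.704.1.A1_s_at) had 2154, 2077 and 1719 at 6 dpa, 1769.9, 1486 and 2089.5 at 9 dpa, 788, 986 and 813 at 12 dpa, 1509, 1725 and 1459 at 19 dpa and 779 and 466 at 25 dpa. The 12 dpa arrays lay below those of 9 and 19 dpa, and the 25 dpa arrays below those of 19 dpa. EXPA4 fell by 1.04 ± 0.19 on the log2 scale from 9 to 12 dpa (adjusted p = 0.0131), by 0.92 with median centring and 0.98 with quantile normalization and so no longer called, and by 1.71 ± 0.21 on the log2 scale from 6 to 25 dpa (adjusted p = 4e-05). Its probe set Ghi.704.1.S1_at, at lower signals, fell by 1.52 ± 0.31 on the log2 scale from 19 to 25 dpa (adjusted p = 0.0232), a call lost without the second 25 dpa array (adjusted p = 0.194). A further EXPA4 probe set had 701 and 34.9 at 25 dpa against 287, 1218 and 218 at 6 dpa and was not called. EXPA11A had 747 and 784 at 25 dpa against 1622, 2059 and 2199 at 19 dpa, and fell by 1.34 ± 0.22 on the log2 scale (adjusted p = 0.00866).

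Other genes of the primary wall also moved in both directions. Pectate lyase cuts the pectin backbone, and its gene Pel had 4596, 2993 and 5053 at 6 dpa, 4764, 6818 and 5020.3 at 9 dpa, 4627, 8193 and 7413 at 12 dpa, 3525, 5551 and 5176 at 19 dpa and 516 and 1004 at 25 dpa. It was high up to 19 dpa on every array, and both 25 dpa arrays lay below all of them. The change from 19 to 25 dpa was -2.69 ± 0.33 (adjusted p = 0.00259), and the call held with either 25 dpa array left out. The other tested pectin gene, PGIPL, was not called (-0.79 from 6 to 25 dpa), and the median of the 2 was -1.65. Of 4 tested probe sets of xyloglucan endotransglucosylases, which cut and rejoin xyloglucan chains, 3 rose and 1 fell, with a median of 1.77. XTH1 was the brightest and rose by 2.13 ± 0.33 (adjusted p = 0.000168) and, in its second probe set, 1.42 ± 0.26. XTH3 rose by 3.33 ± 0.87 from low signals (adjusted p = 0.00649), and by 2.32 (adjusted p = 0.091) without the first 25 dpa array. XTH fell, with 1689 and 1153 at 25 dpa against 6100.1, 5031 and 5668 at 6 dpa (-2.00 ± 0.29, adjusted p = 0.00013).

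Nucleotide sugars are the building blocks of wall polysaccharides, and 1 of 7 tested probe sets of this list rose from 6 to 25 dpa, 2 fell and 4 were not called, with a median of 0.22. GAE2, an epimerase that makes UDP-galacturonate for pectin, had 2107, 1486 and 2038 at 6 dpa, 1365, 1056 and 1189 at 12 dpa, 367, 222 and 473 at 19 dpa and 279.5 and 199 at 25 dpa. The 19 and 25 dpa arrays lay below those of 6 and 12 dpa, and the change from 6 to 25 dpa was -2.95 ± 0.29 (adjusted p = 7.68e-06). UGD2, a UDP-glucose dehydrogenase, rose from 6 to 9 dpa, with 1049, 1385 and 1273 at 9 dpa against 843, 488 and 536 at 6 dpa (1.02 ± 0.20, adjusted p = 0.0165). This step lay close to the minimum change and was not put through the alternatives. Median centring lowers every change of the step alike, and took its median from -0.008 to -0.088. UGD2 was also the rise of the list from 6 to 25 dpa, which was 0.95, under the minimum change, without the first 25 dpa array. Of 4 rgp1 probe sets 1 was called, at -1.003 (adjusted p = 0.0319), a call lost in 7 alternatives, median centring (-0.80) and quantile normalization (-0.98) among them, and RHM3 was not called (0.34).

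Tubulins form the cortical microtubules, and 5 of 8 probe sets rose from 6 to 25 dpa, none fell and 3 were not called, with a median of 1.69, beside 13.1% higher and 20.7% lower of all tested probe sets. TUA10, an alpha-tubulin, had 318, 39.0 and 275 at 6 dpa, 4134, 1861 and 949.5 at 9 dpa, 8072, 8719.8 and 11744 at 12 dpa, 15021, 16456 and 12740.4 at 19 dpa and 13817 and 14054 at 25 dpa. The first 3 days did not overlap, and most of the rise was over by 12 dpa. The step from 6 to 9 dpa was 3.62 ± 0.64 (adjusted p = 0.0108), the largest of that step among the genes named for it, and the whole change 6.47 ± 0.72 (adjusted p = 1.73e-05). A second TUA10 probe set, which shares its design cluster number, 4648, with a probe set of LTP3, changed by 6.42, with a step of 2.31 ± 0.59 from 9 to 12 dpa (adjusted p = 0.0371, 0.153 without the third 9 dpa array). The third, bright at the end of the course, changed by 0.64 and was not called. BTub1, a beta-tubulin, had 3102, 5493 and 1984 at 9 dpa against 918, 354 and 345 at 6 dpa and rose in that step by 2.73 ± 0.37 (adjusted p = 0.00251). BTub3 and BTub4 rose over the whole course by 2.09 and 1.30, while TUA6 changed by 0.19 and TubA2 by 0.93, neither called.

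Of 3 tested genes for microtubule motors and severing, KTN1 (katanin, which cuts microtubules) rose by 1.34 ± 0.23 (adjusted p = 0.000447; 0.87 without the second 25 dpa array, under the minimum change), while the kinesins kch2 (1.01) and KIS13A1 (0.08) were not called, and the median was 1.01. None of 5 tested actin cytoskeleton genes was called by limma between 25 and 6 dpa, although 4 of the 5 (ACT1, ACT7, ACT11 and CAP) had an unadjusted, and an adjusted, p under 0.05 with changes under 1. Their median was 0.48, CAP had the largest change, 0.94 ± 0.15, and ACT1 the highest signals, with 15777 and 18077 at 25 dpa against 11336, 11216 and 14027 at 6 dpa.

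Among the tested lipid genes, CPA-FAS-2 and CPA-FAS-1 had the largest falls from 6 to 25 dpa. Cyclopropane fatty acid synthases add a ring to unsaturated fatty acids, and all 3 tested members fell from 6 to 25 dpa. CPA-FAS-2 had 1099, 1216 and 765 at 6 dpa, 306, 130.5 and 240.3 at 9 dpa, 45.3, 108 and 74.2 at 12 dpa, 1.13, 7.89 and 15.8 at 19 dpa and 3.03 and 1.38 at 25 dpa. Each day up to 19 dpa lay wholly below the one before, and the last 2 days were near the offset. The change was -2.22 ± 0.47 from 6 to 9 dpa (adjusted p = 0.0192), -2.78 ± 0.47 from 12 to 19 dpa (adjusted p = 0.00225) and -7.28 ± 0.52 over the whole course (adjusted p = 8.86e-07). The call of the first step was lost with no offset and without any of 3 arrays in turn. CPA-FAS-1 fell by 4.61 ± 0.77 on the log2 scale (adjusted p = 0.000335). CPA-FAS-3 fell by 1.13 ± 0.36 on the log2 scale (adjusted p = 0.0191), a call lost with median centring (-0.93) and without the second 25 dpa array (-0.65, adjusted p = 0.229). With the plastid enzymes KASII (-1.81) and sad1, a stearoyl-ACP desaturase (-2.10), 5 of 9 tested probe sets of this list fell, the desaturase gene FAD78-1A rose (1.21, and 0.86 without the second 25 dpa array) and 3 were not called, with a median of -1.13. The shares over all tested probe sets were 20.7% lower and 13.1% higher.

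Ketoacyl-CoA synthases lengthen fatty acids to very long chains, and of their 7 probe sets 3 rose, 1 fell and 3 were not called, with a median of 0.40. KCS12 rose, with 8065 and 10964 at 25 dpa against 4578, 4429.6 and 4629.9 at 6 dpa (1.05 ± 0.14, adjusted p = 4.85e-05), and KCS10 rose by 2.16 ± 0.34 from low signals. With quantile normalization KCS12 changed by 0.81 and the KCS38 probe set that rose by 0.88, neither then called. Without the second 25 dpa array they changed by 0.83 and 0.84. The 4 KCS38 probe sets disagreed, with 1.12 (a rise), 0.40 and -0.83 (not called) and -1.54 (a fall). LTP3, a lipid transfer protein of the fibre, fell after 12 dpa in 1 probe set, GhiAffx.15712.3.S1_x_at, with 5128, 5397 and 4743 at 12 dpa, 381, 1481 and 1579 at 19 dpa and 487 and 379 at 25 dpa. The 12 and 19 dpa arrays did not overlap, and the step was -2.39 ± 0.40 (adjusted p = 0.00207). The other LTP3 probe set had 15969 and 15013 at 25 dpa against 14639, 13646 and 18622 at 6 dpa and was not called (-0.00). The median of the 2 was -1.59.

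Of 6 tested genes for turgor and the vacuole, VP fell (-1.55 ± 0.52, adjusted p = 0.0244; -1.11, adjusted p = 0.194, without the second 25 dpa array) and 5 were not called, with a median of 0.11. DET3 and cva69.24, both of the vacuolar proton pump, changed by 0.52 and 0.45, the potassium transporter gene KT by -0.45 and the carboxylase gene PEPC1 by -0.22.

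Among the hormone genes, Aux6, listed with auxin by its name, had 89.5, 61.5 and 106 at 6 dpa, 475, 849 and 582 at 9 dpa, 2239.8, 1825 and 2058 at 12 dpa, 6191, 6994 and 5958 at 19 dpa and 5120.2 and 4558 at 25 dpa. No 2 of the first 4 days overlapped, and each of the first 3 steps was called, with 2.82 ± 0.22, 1.71 ± 0.22 and 1.64 ± 0.22 (adjusted p = 8.14e-05, 0.00289 and 0.000499). Aux2 peaked at 12 dpa, with 349, 312 and 616 at 6 dpa, 4336, 8888 and 7956 at 12 dpa and 2169 and 2619.9 at 25 dpa, and its largest step was the first, 3.08 ± 0.27 (adjusted p = 0.000114). Aux3 fell by 1.64 ± 0.52 on the log2 scale from 6 to 25 dpa (adjusted p = 0.0181, 0.121 without the second 25 dpa array). In all, 2 of 6 tested auxin probe sets rose, 1 fell and 3 were not called, with a median of 0.70, and ARF1, the brightest, changed by 0.72. These counts stand beside 13.1% higher and 20.7% lower of all tested probe sets.

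Of 4 brassinosteroid and gibberellin genes 2 fell from 6 to 25 dpa and none rose, with a median of -1.04. DET2, a steroid reductase of brassinosteroid synthesis, had 1619.7, 1863 and 1779 at 12 dpa, 473, 577 and 571 at 19 dpa and 459.8 and 511 at 25 dpa. The 12 and 19 dpa arrays lay far apart, and the step between them was -1.70 ± 0.15 (adjusted p = 4.36e-05). GID1-4, a gibberellin receptor, peaked at 9 to 12 dpa, with 269.5, 235 and 302 at 6 dpa, 620.3, 534 and 444 at 9 dpa, 468, 690.5 and 649 at 12 dpa, 151, 121 and 80.7 at 19 dpa and 117 and 108 at 25 dpa. Its 9 and 12 dpa arrays lay above all others, and the step from 12 to 19 dpa was -2.34 ± 0.23 (adjusted p = 7.65e-05). Its change from 6 to 25 dpa, -1.22, was -0.79 with quantile normalization and then not called. GID1-2 and GAI2 were not called (0.90 and -0.86). Of 6 tested ethylene synthesis probe sets, ACO3, an ACC oxidase, rose by 3.02 ± 0.91 (adjusted p = 0.0144; 1.88, adjusted p = 0.176, without the first 25 dpa array) and 5 were not called, with a median of 0.64. ACO3 had 4107 and 851 at 25 dpa against 129.7, 286 and 317 at 6 dpa, the higher value on the first array. ACS1, the brightest, changed by 0.49 and the 2 ACO1 probe sets by 0.80 and 1.55.

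**Figure D4:**
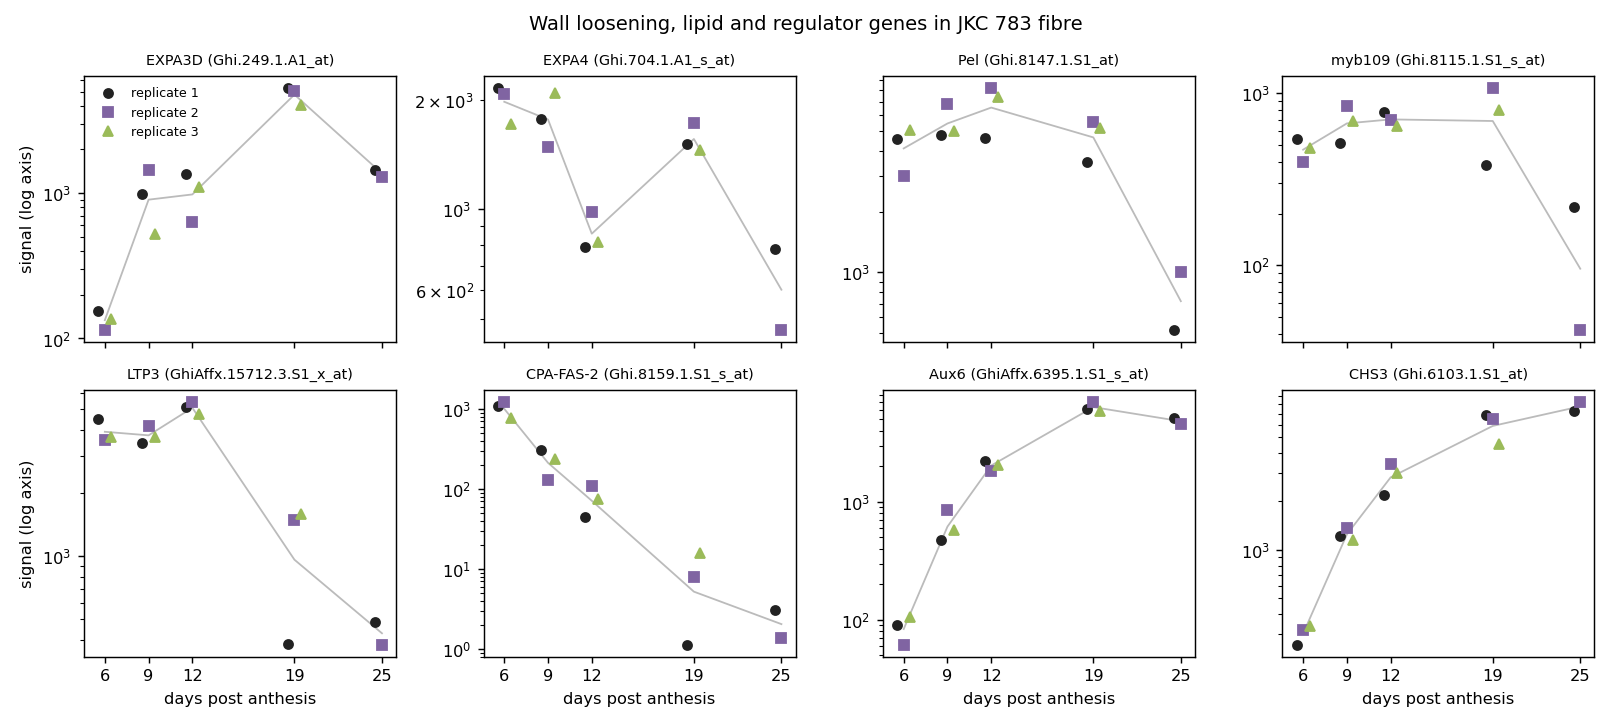
Signals of EXPA3D, EXPA4, Pel, myb109, LTP3, CPA-FAS-2, Aux6 and CHS3 on the 14 JKC 783 fibre arrays (vertical, log axis) against days post anthesis (horizontal), with a marker shape for each replicate number and a line through the geometric means. Pel and myb109 drop after 19 dpa and LTP3 after 12 dpa, CPA-FAS-2 falls from 6 dpa on, and Aux6 and CHS3 climb up to 19 dpa.

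Genes of reactive oxygen and its enzymes gave 4 rises, 1 fall and 6 without a call among 11 tested, with a median of 0.32. Beside Rac13 and Rac9, the catalase gene CAT2 rose late, with 173 and 349.7 at 25 dpa against 71.1, 59.3 and 67.2 at 19 dpa (1.84 ± 0.34, adjusted p = 0.0135), a call lost without the second 25 dpa array (1.34, adjusted p = 0.154). The alternative oxidase gene AOX1 rose by 1.46 ± 0.38 from 6 to 25 dpa (0.74, adjusted p = 0.133, without the first 25 dpa array), and the iron superoxide dismutase gene FeSOD fell by 1.11 ± 0.39 on the log2 scale, a call lost in 7 alternatives, median centring (-0.91) and quantile normalization (-0.92) among them. CSD2a, the brightest, changed by 0.32.

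Class III peroxidases are secreted enzymes that use hydrogen peroxide in the wall. Of 9 tested probe sets listed with them by name 3 rose, 1 fell and 5 were not called from 6 to 25 dpa, with a median of 1.34. Among all tested probe sets 13.1% were higher and 20.7% lower. The gene pox had 256, 154 and 408 at 6 dpa, 895, 1265 and 470.1 at 9 dpa, 2601, 1725 and 2057 at 12 dpa, 4684, 6634 and 5789.6 at 19 dpa and 1604 and 2188 at 25 dpa. The first 4 days did not overlap and each of their 3 steps was called (1.66, 1.37 and 1.43), and the 25 dpa arrays lay below those of 19 dpa (-1.59 ± 0.41, not called). POX5 had 7.04, 0.918 and 13.0 at 6 dpa, 332, 21.5 and 67.8 at 9 dpa and 215 and 388 at 25 dpa. Its call from 6 to 9 dpa (3.07 ± 0.84, adjusted p = 0.0493) was lost in 15 of the alternatives, among them leaving out the first 9 dpa array (2.08, adjusted p = 0.14), while that from 6 to 25 dpa (4.85 ± 0.94, adjusted p = 0.00095) held in all. The rise of pod7 from 6 to 25 dpa (2.98 ± 1.05, adjusted p = 0.0301) was lost without the first 25 dpa array (1.79, adjusted p = 0.272). The gene named peroxidase fell (-1.51 ± 0.53, a call lost without either 25 dpa array), and pod10 was not called (2.59). Of 2 tested glutathione S-transferase probe sets, that of GST given above rose by 5.12 ± 1.08 (adjusted p = 0.00167), by 3.92 without the first 25 dpa array, and the other was not called (-0.61), with a median of 2.26.

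Chalcone synthase starts flavonoid synthesis, and CHS3 had 258, 319 and 336 at 6 dpa, 1227, 1368 and 1159 at 9 dpa, 2194, 3403 and 3005 at 12 dpa, 6883, 6535 and 4518 at 19 dpa and 7327 and 8242 at 25 dpa. No 2 of the first 4 days overlapped, and its first 3 steps were each called (2.03 ± 0.19, 1.17 ± 0.19 and 1.06 ± 0.19). With CHS6 (1.93 ± 0.40), 2 of 5 tested flavonoid probe sets rose from 6 to 25 dpa and 3 were not called, among them DFR, the brightest (-0.52), with a median of 0.41. Both phenylpropanoid genes, CCR1 (1.31 ± 0.23, and 0.99 without the second 25 dpa array, just under the minimum change) and CCoAMOT2 (1.99 ± 0.48), rose, with a median of 1.65.

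The single terpenoid gene, cdn1-C4, makes delta-cadinene on the way to gossypol, the toxic pigment of cotton glands. It had 789, 686 and 131 at 6 dpa, 1309, 3152 and 3317 at 9 dpa, 2378, 2537 and 1691 at 12 dpa, 71.4, 353 and 229 at 19 dpa and 132 and 53.2 at 25 dpa. The 9 and 12 dpa arrays lay above all others, and it was among the 7 named probe sets with a peak. It rose by 2.51 ± 0.69 from 6 to 9 dpa (adjusted p = 0.0491) and fell by 3.55 on the log2 scale from 12 to 19 dpa (adjusted p = 0.00548). The call of the rise lay just under the threshold and was not put through the alternatives, and the third 6 dpa array was far below the others of its day. The change of cdn1-C4 from 6 to 25 dpa, -2.25 ± 0.77 (adjusted p = 0.0266), was not called with quantile normalization (adjusted p = 0.0607) or without the second 25 dpa array (adjusted p = 0.202). CMDR1 also peaked at 12 dpa, with 1658, 1105 and 1543 at 6 dpa, 3089, 3811 and 3563 at 12 dpa and 964 and 983 at 25 dpa, and fell by 1.55 on the log2 scale from 19 to 25 dpa (adjusted p = 0.00996, 0.0709 without the second 25 dpa array).

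Of 9 MYB transcription factor probe sets, 1 rose from 6 to 25 dpa, 4 fell and 4 were not called, with a median of -1.77. Among all tested probe sets 13.1% were higher and 20.7% lower. GHMYB10 had 60.5 and 25.4 at 25 dpa against 1062, 877 and 307 at 6 dpa (-3.92 ± 0.71, adjusted p = 0.000586), GHMYB38 changed by -2.50 in 1 of 2 probe sets and MYB6 by -2.25, both called, and MYB1 rose by 1.56 ± 0.32. The MYB factor myb109, required for fibre growth, fell late, with 778, 696 and 647 at 12 dpa, 384, 1074 and 796 at 19 dpa and 218 and 41.9 at 25 dpa. Both 25 dpa arrays lay below all those of 12 and 19 dpa but were themselves far apart. The step from 19 to 25 dpa was -2.78 ± 0.53 (adjusted p = 0.0172), and -1.64 (adjusted p = 0.139) without the second 25 dpa array, which also ended its call from 6 to 25 dpa (-2.23, and -1.09, adjusted p = 0.0677, without it). GHMYB36 fell by 2.16 ± 0.64 on the log2 scale from 12 to 19 dpa (adjusted p = 0.0446), a call that was lost in 15 alternatives.

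HOX3, an HD-ZIP factor that promotes fibre elongation, had 683 and 987 at 25 dpa against 1719, 1954 and 1536 at 19 dpa. These days did not overlap, and the change was -1.07 ± 0.17 (adjusted p = 0.00866). This change lay close to the minimum of 1 and was not put through the alternatives. Median centring moves every change of a step by the same amount, and took the median of this step from -0.07 to 0.04. The change from 6 to 25 dpa was not called for either HD-ZIP gene (HOX3 -0.37, HB4 -0.95, median -0.66), and 0 of these 2 had an unadjusted p under 0.05 in limma. The bHLH factor GHDEL61 fell by 4.04 ± 0.62 on the log2 scale (adjusted p = 0.000178) and the WD40 protein gene GHTTG1 was not called (0.36), with a median of -1.84. Of 9 NAC probe sets, the 3 of nst3 rose, NAC7 fell (-2.95 ± 0.63, adjusted p = 0.00172) and 5 were not called, with a median of 1.16. Of 2 tested WRKY probe sets, WRKY24 fell (-2.50 ± 0.96, adjusted p = 0.0444, a call lost in 12 alternatives) and WRKY15 was not called (0.11), with a median of -1.19. None of 8 tested AP2/ERF and RAV probe sets was called by limma between 25 and 6 dpa (2 of them, CBF17 and CBF20, had an unadjusted, and an adjusted, p under 0.05), with a median of 0.20, the brightest (CBF17) at 0.47 and the largest changes in ERF8 (1.58) and RAV1 (1.50).

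Of 9 tested MAP kinase pathway probe sets 5 rose from 6 to 25 dpa, none fell and 4 were not called, with a median of 1.50, beside 13.1% higher and 20.7% lower of all tested probe sets. Of the 5 rises 4 were of probe sets of the single gene MPK3. MPK3, a kinase of stress responses in Arabidopsis, had 66.2, 61.4 and 52.5 at 6 dpa, 734, 134 and 189 at 9 dpa, 808, 504 and 171 at 12 dpa, 555, 489 and 919.5 at 19 dpa and 1264 and 697 at 25 dpa. All later arrays lay above the 6 dpa arrays, and the first array was the highest at 9, 12 and 25 dpa. The 4 tested MPK3 probe sets rose by 1.72 to 3.88 on the log2 scale from 6 to 25 dpa, the smallest of them with a call lost in 11 alternatives. Of 6 calcium signalling probe sets, the ion channel gene CNGC2 fell (-2.88 ± 0.54, adjusted p = 0.000754) and 5 were not called, CBL3 at 0.75 among them, with a median of -0.47. Of 4 ribosomal protein genes RPL44 fell (-1.57 ± 0.24) and 3 were not called (RPS4 -0.84, RPL37A -0.51, RPS16 0.08), with a median of -0.67. Of 5 proteasome probe sets, 1 of 2 of paC1 rose (1.86, against 0.68 in the other) and 4 were not called, with a median of 0.17. Limma called none of the 4 translation elongation factor probe sets, 2 of which, both of EF1A7, had an unadjusted, and an adjusted, p under 0.05 with changes under the minimum (median -0.24, EF1A7 at -0.95). It called none of the 4 of annexins and 14-3-3 proteins, 1 of which, AnnGh1, the brightest, had an unadjusted, and an adjusted, p under 0.05 with a change under the minimum (median -0.06, AnnGh1 at 0.50).

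The question of where JKC 783 differs was put first to JKC 777 and JKC 737, chosen, with earlier results of these data known, as the genotypes with the most similar fibre courses. The change in JKC 783 minus the mean change of those 2 genotypes was tested over 16634 probe sets, in limma on all 89 arrays. Few probe sets differed in the first steps. From 6 to 9 dpa 31 did (0.186%), 22 with the more positive change in JKC 783 (0.132%) and 9 with the more negative (0.0541%), and from 9 to 12 dpa 31 (0.186%), 9 more positive (0.0541%) and 22 more negative (0.132%). From 12 to 19 dpa 512 differed (3.08%), 235 more positive (1.41%) and 277 more negative (1.67%) in JKC 783. From 19 to 25 dpa 1438 differed (8.64%), 868 more positive (5.22%) and 570 more negative (3.43%), and from 6 to 25 dpa 1008 (6.06%), 632 more positive (3.8%) and 376 more negative (2.26%). Without the first JKC 783 array of 25 dpa these last counts were 735 and 542, and without its first array of 12 dpa that from 12 to 19 dpa was 298. The split of that step turned with single arrays, to 182 more positive and 116 more negative without the first 12 dpa array and to 321 and 144 without the second 19 dpa array. With median centring the 6 to 25 dpa split was 454 more positive and 477 more negative, that of the first step 5 and 15, and that of 9 to 12 dpa 11 and 13. With quantile normalization the first step had 10 and 8, and that of 9 to 12 dpa 16 and 23. Against JKC 777 alone the first 2 steps gave 181 and 254 calls, and against JKC 737 alone 0 and 2, with 840 probe sets at an unadjusted p under 0.05 in limma beside the 0. The step from 12 to 19 dpa gave 891 calls against JKC 777 alone, 542 more positive and 349 more negative. Against JKC 737 alone it gave 83, with 35 and 48. Against JKC 777 alone the step from 19 to 25 dpa had 616 more positive and 754 more negative changes.

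At 25 dpa CTL1, FLA7 and GLU were lower in JKC 783. CTL1 had 436 and 1371 in JKC 783 at 25 dpa, against 10583, 12599 and 2087 in JKC 777 and 11411, 12769 and 12699.8 in JKC 737. Both JKC 783 arrays lay below all 6 others. The change from 19 to 25 dpa differed by -4.34 ± 0.56 (difference of log2 changes, adjusted p = 8.39e-08). FLA7 had 119 and 199.6 in JKC 783, against 3353, 5563 and 269 in JKC 777 and 1535, 4033 and 4390.3 in JKC 737, again with both below all others, and differed in that step by -5.77 ± 0.95 (adjusted p = 1.21e-05). From 6 to 25 dpa the FLA7 difference was smaller, -3.49, so up to 19 dpa its change had been the more positive in JKC 783. GLU had 415 and 201 in JKC 783, against 3737, 7329 and 285 in JKC 777 and 4093, 10107 and 8861 in JKC 737. The third JKC 777 array lay between the 2 of JKC 783, the other 5 far above, and the change from 6 to 25 dpa differed by -4.49 ± 0.82 (adjusted p = 0.000102). That same JKC 777 array was also the lowest of the 6 for CTL1 and FLA7. Among the genes given below, it was the lowest of the 6 at 25 dpa for CelA1 too. It was the highest of the 6 for EXPA3D, myb109, CHS6 and cdn1-C4, and neither for KT and POX5.

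CelA1 (Ghi.1151.1.A1_at) had 519.8, 183 and 905 at 19 dpa in JKC 783, against 147, 37.7 and 108 in JKC 777 and 130.3, 98.7 and 112 in JKC 737, and 1652 and 8258 at 25 dpa in JKC 783, against 13703, 15426 and 7858 in JKC 777 and 22036, 16693 and 16198 in JKC 737. It was higher on all JKC 783 arrays at 19 dpa, and at 25 dpa 1 JKC 783 array was below all others and 1 fell among those of JKC 777. The step from 19 to 25 dpa differed by -4.11 ± 0.58 (adjusted p = 6.2e-07) and held without either 25 dpa array (-5.27 and -2.95). The difference from 6 to 25 dpa, -2.09 ± 0.58, was lost without the first 25 dpa array (-0.93, adjusted p = 0.48) and against JKC 777 alone (-1.51, adjusted p = 0.163). The difference of FLA7 from 6 to 25 dpa, -3.49 ± 0.95, was lost in the same 2 settings (adjusted p = 0.105 and 0.104) and with no offset (-3.40, adjusted p = 0.0653). KT, a potassium transporter gene, had 85.8 and 227 in JKC 783 at 25 dpa, against 592, 949 and 652 in JKC 777 and 680.0, 861 and 1012 in JKC 737, with no overlap (-2.68 ± 0.48 from 6 to 25 dpa, adjusted p = 8.32e-05).

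The sucrose synthase gene susC was the single named gene with a difference in the step from 9 to 12 dpa. At 12 dpa it had 236, 218 and 262 in JKC 783, against 547, 676 and 621 in JKC 777 and 583, 605 and 617 in JKC 737, and at 19 dpa 8353, 8409.6 and 7105 in JKC 783, against 5239.6, 5810.4 and 3923 in JKC 777 and 5450.2, 3971 and 7243 in JKC 737. The JKC 783 arrays were below all others at 12 dpa and, apart from 1 JKC 737 array within their range, above them at 19 dpa. The step from 9 to 12 dpa differed by -1.98 ± 0.28 (adjusted p = 2.06e-05) and that from 12 to 19 dpa by 1.96 ± 0.28 (adjusted p = 2.86e-06), in all alternatives. FLA6 at 12 dpa had 843, 55.3 and 76.6 in JKC 783, against 1.34, 14.9 and 5.50 in JKC 777 and 15.8, 3.48 and 8.03 in JKC 737, with all 3 JKC 783 arrays above the 6 others. Its difference in the step from 9 to 12 dpa was 2.77 ± 0.71 (adjusted p = 0.0611) and was not called.

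The expansin gene EXPA3D (GhiAffx.40054.1.S1_at) had 1748 and 947 in JKC 783 at 25 dpa, against 323, 131 and 754 in JKC 777 and 129, 143 and 84.1 in JKC 737. Both JKC 783 arrays lay above all others, and the change from 6 to 25 dpa differed by 3.37 ± 0.61 (adjusted p = 9.92e-05) and did so in all alternatives. The gene myb109 had 218 and 41.9 in JKC 783, against 19.5, 1.15 and 59.2 in JKC 777 and 6.23, 10.2 and 11.3 in JKC 737. The second JKC 783 array lay below the highest of JKC 777, and the difference, 3.02 ± 0.62 (adjusted p = 0.000522), was 1.89 (adjusted p = 0.109) without the first JKC 783 array. The change of cdn1-C4 from 6 to 25 dpa differed by 2.66 ± 0.83 (adjusted p = 0.0272), but its 25 dpa signals, 132 and 53.2 in JKC 783, overlapped the 132, 41.3 and 155 of JKC 777 and the 80.9, 75.2 and 63.8 of JKC 737. At 6 dpa it had 789, 686 and 131 in JKC 783, against 4648, 1907 and 2383 in JKC 777 and 1434, 3531 and 3045 in JKC 737, where the 3 JKC 783 arrays lay below the 6 others. That call was lost in 4 alternatives, among them leaving out the third 6 dpa array of JKC 783 (1.84, adjusted p = 0.174).

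The changes of POX5 and CHS6 from 6 to 25 dpa differed too. POX5 had 215 and 388 in JKC 783 at 25 dpa, against 9.13, 41.4 and 43.2 in JKC 777 and 4.26, 16.1 and 79.9 in JKC 737, with no overlap (3.65 ± 0.90 from 6 to 25 dpa, adjusted p = 0.00414). CHS6 had 153 and 362 in JKC 783, against 36.2, 81.7 and 289.8 in JKC 777 and 28.4, 47.4 and 70.6 in JKC 737, and a difference of 2.83 ± 0.71 (adjusted p = 0.00484, 0.0787 without the second JKC 783 array). The differences of pod7 (-3.95), pod10 (-4.79) and ACO1 (-3.79) from 12 to 19 dpa, and of pod7 (3.73) and GST (3.50) from 19 to 25 dpa, concern genes whose replicates differed widely. Without the first JKC 783 array of 12 or 25 dpa those of pod7, ACO1 and GST were not called. They were not called without its second 19 dpa array either.

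**Figure D5:**
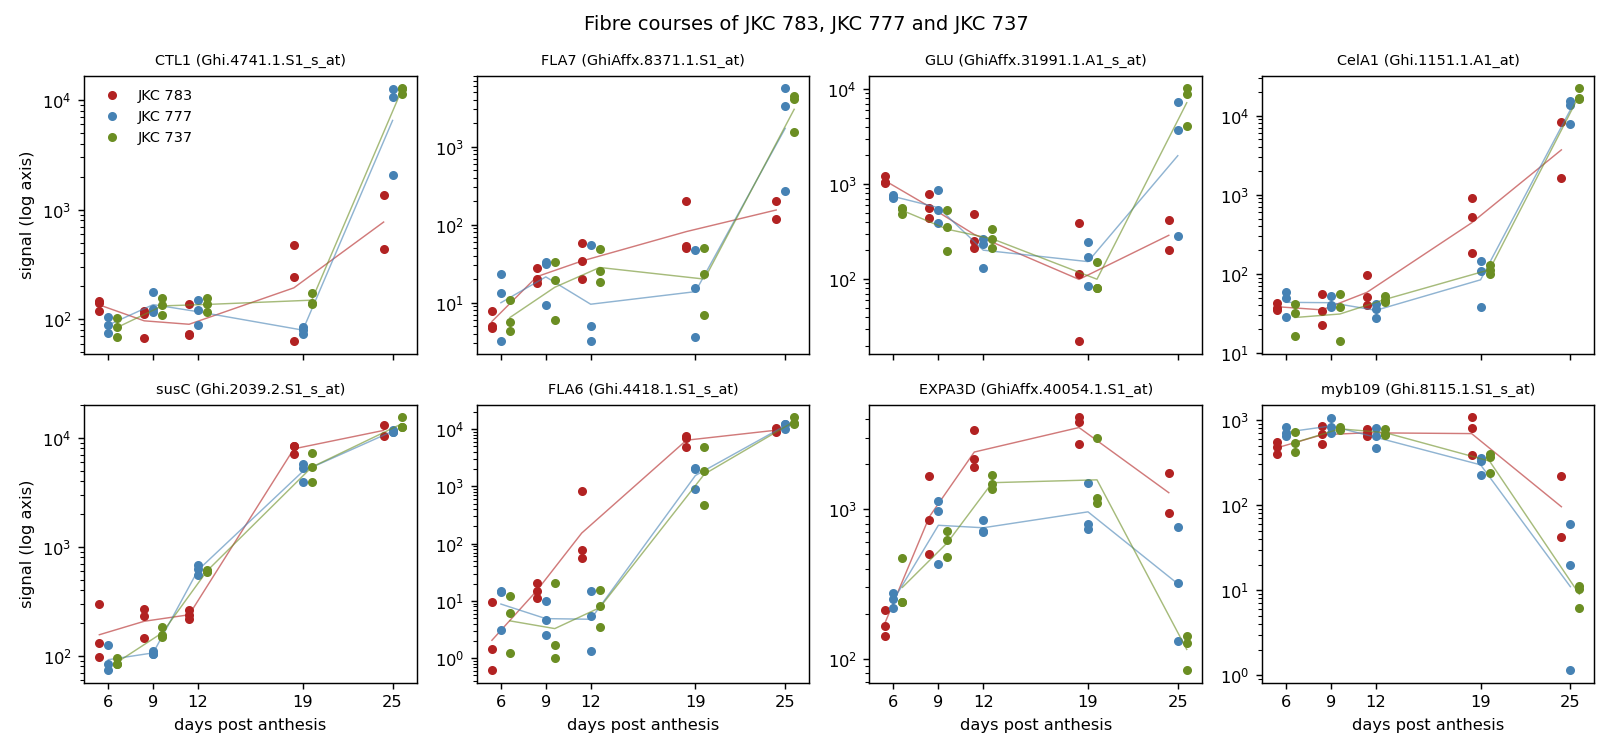
Signals of CTL1, FLA7, GLU, CelA1, susC, FLA6, EXPA3D and myb109 (vertical, log axis) against days post anthesis (horizontal) in fibre of JKC 783 (red), JKC 777 (blue) and JKC 737 (green), each point an array, set slightly apart within a day, and each line through geometric means. At 25 dpa both JKC 783 arrays lie below all others for CTL1 and FLA7 and above all others for EXPA3D.

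The last comparison was with JKC 725 and JKC 703. The change from 6 to 25 dpa in JKC 783 differed from their mean for 6963 of 17919 probe sets (38.9%), 2841 more positive (15.9%) and 4122 more negative (23%) in JKC 783. With median centring the split turned, to 3608 more positive and 3066 more negative. CelA1 (Ghi.8461.1.A1_at) had 1801 and 7306 in JKC 783 at 25 dpa, against 601, 557 and 524 in JKC 725 and 419, 410.5 and 257 in JKC 703, and 6.65, 27.1 and 33.7 at 6 dpa in JKC 783, against 2173, 3221 and 5176 in JKC 725 and 2604, 3568 and 4154 in JKC 703. It ran upward in JKC 783 and downward in both others, with a difference of 10.16 ± 0.88 (adjusted p = 1.29e-15). The KCS38 probe set Ghi.9938.1.S1_x_at at 25 dpa had 7829 and 11556 in JKC 783, against 208, 108 and 61.1 in JKC 725 and 46.2, 70.8 and 63.7 in JKC 703 (7.53 ± 0.38, adjusted p = 3.56e-26). EXPA3D (GhiAffx.40054.1.S1_at), Aux6 and pox differed in the same direction, by 9.80, 9.62 and 6.84. For each gene the probe set with the largest difference in that direction is given. The other probe sets of CelA1 and KCS38, whose courses in JKC 783 differed from these, are not given for this comparison.

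The opposite held for GLU, with 415 and 201 in JKC 783 at 25 dpa, against 22179, 19721 and 15752 in JKC 725 and 18055, 18122 and 16118 in JKC 703, a difference of -7.37 ± 0.82 (adjusted p = 1.2e-11). FLA7 had 119 and 199.6 in JKC 783, against 15735, 16033 and 17718 in JKC 725 and 16652, 17966 and 15969.6 in JKC 703, and differed by -5.72 ± 0.95 (adjusted p = 6.43e-07). KT differed by -4.80, WRKY24 by -6.21 and CPA-FAS-2 by -6.13. At 6 dpa CPA-FAS-2 signals were 1099, 1216 and 765 in JKC 783, against 131, 61.0 and 46.6 in JKC 725 and 60.0, 58.3 and 50.7 in JKC 703. These tests compare lines, with arrays as replicates, and the field, harvest and hybridization of each line cannot be told apart from its genotype.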

How the data were processed

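Fibre RNA of JKC 783 was measured on Affymetrix Cotton Genome arrays, 1 array per sample, and the replicates are labelled as biological. The deposited intensities are MAS5 signals on a linear scale, per the submitters' processing notes (the version is not given in the sources used here). The authors' values gave nearly the same trimmed mean on every array, and no further normalization between arrays was added. Of 24132 entries 103 control probe sets were left out. Signals were put on a scale of log2(signal + 4.38), the offset being the 10th percentile of the table. A probe set was tested where the mean of at least 1 of the 5 days reached 40.4, the 40th percentile, which kept 15940 and left out 8089.

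R 4.3.3 and its package limma 3.58.1 gave the changes (from 5 day means, an intensity trend in the prior, 9 residual degrees of freedom), with Benjamini-Hochberg adjustment over all tested probe sets and a call needed both an adjusted p below 0.05 and at least 1 log2 unit. Differences between genotypes were contrasts of changes in 1 limma fit of all 89 arrays with 30 group means. Tables and plots were made with Python 3.11.15, pandas 2.3.3, numpy 2.4.6 and matplotlib 3.10.9. Simulated data for 25 against 6 dpa had 15940 probe sets with normal noise, of which 50 were changed by each size. Of changes of 3 and of -3 on the log2 scale 94% were recovered, of those of 1.5 64% and of those of -1.5 66%, and 7 unchanged probe sets were called. In the data a far larger share was called between these days, 33.8%, so the adjustment differs and these shares need not carry over. The small number of arrays limits the precision.

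Of the probe sets, 743 have a gene in the platform annotation, 46 of them several, and 324 have a single gene with a readable synonym in the cotton gene table; 23286 are unnamed here. Names come from those synonyms and can be old. Named were, per step, the 5 largest rises and falls without overlap between days, for 25 against 6 dpa the 10 largest, the 5 peaks and troughs with the largest smaller difference, up to 4 members and the brightest of each gene list, and the largest differences between genotypes. The members and lists were chosen with earlier results of these data known. The lists of nucleotide sugars, microtubule motors, other fatty acid synthesis, translation elongation factors and MAP kinases were added later than the rest, and a planned list of other arabinogalactan and proline-rich proteins had no match. Alternatives were another offset, filter, scaling, model and set of arrays, the replicate number as a block, and each array left out in turn. No sequences are shown.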

Additional observations from a re-analysis of the deposited data

Results flagged for a closer look

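The following genes changed differently in JKC 783 than in other genotypes, by limma's test of the difference of changes on the log2 scale (JKC 783 minus the mean of the others). Arrays are the replicates, and signals and adjusted p-values of most are given in the report. In the alternatives only arrays of JKC 783 were left out in turn, so the dependence on single arrays of the other genotypes was not tested.

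Against JKC 777 and JKC 737, susC differed by -1.98 from 9 to 12 dpa and by 1.96 from 12 to 19 dpa. From 12 to 19 dpa EXPA4 (Ghi.704.1.S1_at) differed by 1.53 and KT by 1.49, and pod10 by -4.79, pod7 by -3.95 and ACO1 by -3.79. The EXPA4 call was lost with no offset, without the first 12 dpa array of JKC 783 and without JKC 777, and that of KT in 5 alternatives. From 19 to 25 dpa pod7 differed by 3.73, POX5 by 3.65 and GST by 3.50, and FLA7 by -5.77, CTL1 by -4.34 and CelA1 (Ghi.1151.1.A1_at) by -4.11. Without the first 25 dpa array of JKC 783, pod7 (2.54, adjusted p = 0.235) and GST (2.29, adjusted p = 0.35) were no longer called.

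From 6 to 25 dpa the more positive changes in JKC 783 were those of POX5 (3.65), EXPA3D (3.37), myb109 (3.02), CHS6 (2.83) and cdn1-C4 (2.66), and the more negative ones those of GLU (-4.49), CTL1 (-4.14), FLA7 (-3.49), KT (-2.68) and CelA1 (Ghi.1151.1.A1_at, -2.09). Those of POX5, EXPA3D, GLU, CTL1 and KT were called in all alternatives tried.

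Against JKC 725 and JKC 703, the change from 6 to 25 dpa was more positive in JKC 783 for CelA1 (Ghi.8461.1.A1_at, 10.16), EXPA3D (GhiAffx.40054.1.S1_at, 9.80), Aux6 (9.62), KCS38 (Ghi.9938.1.S1_x_at, 7.53) and pox (6.84), and more negative for GLU (-7.37), WRKY24 (-6.21), CPA-FAS-2 (-6.13), FLA7 (-5.72) and KT (-4.80). All 10 were called in all alternatives tried.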

How the results depend on the processing

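No called change or difference of a named gene that was put through the alternatives changed sign in any of them. For changes of a gene over a single step, only the largest rises and falls without overlap between days were put through. The other single-step calls given in the report were not, so their dependence on the processing and on single arrays was not tested. The split of a count into higher and lower turned in several, as given in the report, and also from 12 to 19 dpa against JKC 777 and JKC 737 with no minimum change (485 and 374) and in the first step without the first 9 dpa array (0 and 2). The counts over the whole course (5392, and 4702 to 5511 with 1 array left out), of the F test (9310, and 8047 to 9295) and against JKC 725 and JKC 703 (6963, and 6211 to 7032) moved by less than 1.5 times, except that with no minimum change 8424 probe sets were called between 25 and 6 dpa. With no minimum change the steps gave 1025 (6 to 9 dpa), 1142 (9 to 12 dpa) and 2091 (12 to 19 dpa), and with the spread taken from all 89 arrays 798 (6 to 9 dpa), 870 (9 to 12 dpa) and 758 (19 to 25 dpa). With 1 array left out the step from 6 to 9 dpa gave 130 to 483 calls (153 and 150 without the first or second 6 dpa array, 224 and 130 without the first or second 9 dpa array). The step from 9 to 12 dpa gave 68 to 560 (68 without the third 9 dpa array, and 304, 162 and 263 without the first, second or the third 12 dpa array), that from 12 to 19 dpa 785 to 1178, and that from 19 to 25 dpa 79 to 543 (543 and 79 without the first or second 25 dpa array). The step from 19 to 25 dpa gave 198 with median centring. Against JKC 777 and JKC 737 the first step (31) gave 20 with median centring, 18 with quantile normalization, 19 with no filter, 181 without JKC 737, 0 without JKC 777 (limma, with 840 at an unadjusted p under 0.05), and 2 to 62 with 1 array left out (7 and 17 without the first or second 6 dpa array, and 2, 51 and 62 without the first, second or the third 9 dpa array). The step from 9 to 12 dpa (31) gave 254 without JKC 737, 2 without JKC 777, 54 with no minimum change, and 15 to 57 with 1 array left out (15 and 57 without the second or the third 12 dpa array, 18 without the third 9 dpa array). The step from 12 to 19 dpa (512) gave 891 without JKC 737, 83 without JKC 777, 859 with no minimum change, and 298 to 547 with 1 array left out (298 without the first 12 dpa array). From 19 to 25 dpa (1438) there were 2393 with no minimum change and 735 to 1715 with 1 array left out, and from 6 to 25 dpa (1008) 1756 and 542 to 1242, with 735 and 542 both without the first 25 dpa array. The cause was not tested.

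Among the results for single genes, leaving out the second 25 dpa array ended 29 calls and the first 23, against 2 to 18 for the other arrays, and median centring ended 11 and quantile normalization 12. Deviations of arrays that share a replicate number correlated at -0.21 to 0.40 (median 0.06, 26 pairs), against -0.30 to 0.23 (median -0.05, 52 pairs) for other arrays, and 13 of the 26 were over 0.1. On no 2 days compared here were all the same-number pairs over 0.1, although between 9 and 19 dpa all 3 were, at 0.15 to 0.40. An array correlated best with its own number in 27 of 52 cases, each a choice among the 3 arrays of another day, or the 2 of 25 dpa. The 2 arrays of 25 dpa give correlations of equal size and opposite sign by construction, so their cases are not separate. The same-number median was the higher, but the pairs were uneven, and the numbers were not taken to pair the samples. With the replicate block, the counts were 491, 490, 1155 and 264 for the 4 steps, 5348 from 6 to 25 dpa, 33, 30, 506, 1447 and 1034 against JKC 777 and JKC 737, 6973 against JKC 725 and JKC 703, and 9314 in the F test, and 2 calls of single genes were lost, those of CelA1 (Ghi.1151.1.A1_at) from 19 to 25 dpa (3.14, adjusted p = 0.0579) and FeSOD from 6 to 25 dpa (-0.9996, adjusted p = 0.0568). The main limits are 2 arrays at 25 dpa that differ widely for some genes, names for few probe sets, probe sets of 1 gene that disagree, signals near the offset whose changes depend on it, and a tissue sampled whole.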

Other observations

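Some named genes outside the gene lists, chosen after their values were seen, also changed between 25 and 6 dpa. Lox1, a lipoxygenase gene, had 6257 and 4322 at 25 dpa against 879.6, 726 and 1401 at 6 dpa and rose by 2.43 ± 0.43 (limma, adjusted p = 0.000504). PAP10, a purple acid phosphatase gene by its name, had 1468 and 2355 at 25 dpa against 131, 149 and 153 at 6 dpa and rose by 3.65 ± 0.69 (adjusted p = 0.000748). The germin-like gene Glp1 rose by 1.86 ± 0.25 (adjusted p = 6.25e-05), and SMT2-2, a sterol methyltransferase gene, changed by -1.40 ± 0.23 (adjusted p = 0.000313), with the other 2 sterol methyltransferase probe sets, SMT1 and SMT2-1, at -0.44 and -0.93 and not called. All 4 calls held in the alternatives tried.

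The 2 largest rises and the largest fall from 6 to 25 dpa were in probe sets without a gene name. Ghi.8476.1.S1_x_at had 0.213, 2.29 and 1.80 at 6 dpa, 567, 45.4 and 119 at 9 dpa, 1844, 108 and 337 at 12 dpa, 981, 489 and 623 at 19 dpa and 10834 and 7996 at 25 dpa, and rose by 10.66 ± 1.02 from 6 to 25 dpa, with the first array highest at 9, 12, 19 and 25 dpa. Ghi.6277.1.A1_x_at had 1.57, 0.499 and 2.46 at 6 dpa, 143, 97.9 and 26.6 at 9 dpa, 1504, 670.4 and 746 at 12 dpa, 7742, 9335 and 8787 at 19 dpa and 6579.7 and 9774 at 25 dpa, and rose by 10.42 ± 0.52, with no overlap among the first 4 days. In the other direction, the largest fall was that of GhiAffx.30723.1.A1_x_at, with 8.07 and 10.2 at 25 dpa against 3587, 3798 and 2406 at 6 dpa (-7.89 ± 0.40). The unnamed probe set with the next largest fall, Ghi.6797.1.S1_at, which changed less than CPA-FAS-2, had 86.7 and 16.2 at 25 dpa against 4543, 5661 and 6287 at 6 dpa (-6.98 ± 0.47). On each of these 4 probe sets the 25 and 6 dpa arrays did not overlap.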
